A study of Saccharomyces cerevisiae with 6 samples.

Results

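Actin and tubulin build the cytoskeleton of budding yeast. Of the 6225 systematic names on the yeast array, 9 that encode them or well-known partners of actin are described here: *ACT1* (YFL039C), *PFY1* (YOR122C), *COF1* (YLL050C), *TPM1* (YNL079C), *ABP1* (YCR088W) and *SAC6* (YDR129C) for the actin side, and *TUB1* (YML085C), *TUB3* (YML124C) and *TUB2* (YFL037W) for the tubulin side. They were picked by name, to ask whether a higher *ACT1* signal in stationary phase *ccr4Δ* cells, already known from these arrays, was shared by the partners of actin. That *ACT1* value chose the set, so the ratios of *ccr4Δ* over wild-type in stationary phase are given below as a description and support nothing. The arrays hybridized Cy3-labelled RNA (100 ng of total RNA each) from *ccr4Δ pbp1Δ*, *ccr4Δ* and wild-type cells, each harvested in stationary phase and in log phase. The cells were grown in YPD at 28 °C, and the strains of the study are W303 derivatives. The *ccr4Δ* strains lack the deadenylase Ccr4, and the double mutant also lacks Pbp1, a poly(A)-binding protein partner. There was 1 array for each of the 6 conditions, so no ratio between strains has a replicate check or a p-value, and whether the phases of a strain came from 1 culture is not stated.

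Actin monomers assemble into filaments that form cortical patches, where endocytosis takes place, and cables, along which vesicles travel to the bud. Profilin and cofilin turn filaments over, tropomyosin stabilizes cables, and fimbrin bundles filaments. Heterodimers of α- and β-tubulin form the microtubules of the spindle and of nuclear positioning. Ccr4 is the main cytoplasmic deadenylase of yeast and shortens the poly(A) tails of messenger RNAs. *ACT1* also has a technical role in studies of RNA: its transcript is often taken as the unchanging reference of qRT-PCR, and it had that role in the qRT-PCR of this study. The primers used for it there are shown because they define the amplicon on which such a reference rests, in lower case throughout with no position marked.
ACT1 forward primer: tgccgaaagaatgcaaaagg
ACT1 reverse primer: tctggaggagcaatgatcttga

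All 9 genes had 1 probe, spotted 2 times on each array, and all 9 were well above background on all 6 arrays with no saturated spot. Levels are given as the processed signal of the probe relative to the 75th percentile of its array, called the relative level, and they are compared only within a probe. The SD between paired spots was 0.0821 to 0.0886 on the log2 scale over the 6 arrays, which covers the printing and the scan and not the culture or the labelling. *CCR4* was not well above background on the arrays of either mutant, and *PBP1* was not on the double mutant arrays. *CCR4* was at least 134-fold lower in *ccr4Δ* than in wild-type cells in stationary phase and at least 108-fold lower in log phase, bounds set by the dimmest probes still measured. The mutant and wild-type arrays also differed in mating type genes. In stationary phase, *ccr4Δ* cells had all 7 **a**-specific markers higher than wild-type cells (median of the log2 ratios 4.84) and 3 of 4 α-specific markers lower. The strain table of the study lists the wild-type strain as *MAT*α and the *ccr4Δ* strain as *MAT***a**, so *CCR4* genotype and mating type cannot be told apart in any ratio of a mutant over wild-type. By the same table both carry *ade2*, *trp1*, *can1*, *leu2*, *his3* and *ura3* alleles, but the wild-type strain also carries an *ADE2* reporter under the *HO* promoter and the *ccr4Δ* strain a *LEU2* marker in place of *CCR4*, which cannot be told apart from *CCR4* genotype either. The markers of the double mutant are not given in the sources used here. Slide 1 held wild-type cells in log phase and slide 2 the other 5 conditions, so slide and condition cannot be told apart where that array is used.

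*ACT1*, the single actin gene of budding yeast, had a relative level of 8.94 in *ccr4Δ pbp1Δ*, 7.77 in *ccr4Δ* and 3.11 in wild-type cells in stationary phase. In log phase it had 12.1 in *ccr4Δ pbp1Δ*, 12.5 in *ccr4Δ* and 15.9 in wild-type cells. The wild-type stationary phase array was the lowest of the 6 and the wild-type log phase array the highest, with the mutants between. The ratio of *ccr4Δ* over wild-type was 2.50-fold in stationary phase (log2 1.32, and 1.32 on each spot) and 0.789-fold in log phase (log2 -0.34, but 0.15 under quantile normalization and 0.14 with the processed values of the authors).

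*PFY1* encodes profilin, which binds actin monomers and feeds them to growing filaments. Its relative level was 3.71 in *ccr4Δ pbp1Δ*, 3.90 in *ccr4Δ* and 1.53 in wild-type cells in stationary phase, and 6.57 in *ccr4Δ pbp1Δ*, 5.83 in *ccr4Δ* and 7.76 in wild-type cells in log phase. The order of the arrays was that of *ACT1* except that *ccr4Δ* stood slightly above the double mutant in stationary phase and below it in log phase. *COF1* encodes cofilin, which severs and depolymerizes filaments. Its relative level was 3.32 in *ccr4Δ pbp1Δ*, 3.04 in *ccr4Δ* and 1.43 in wild-type cells in stationary phase, and 4.69 in *ccr4Δ pbp1Δ*, 3.67 in *ccr4Δ* and 5.65 in wild-type cells in log phase. In *ccr4Δ* over wild-type in stationary phase, *PFY1* was 2.56-fold and *COF1* 2.13-fold higher, within 0.25 of *ACT1* on the log2 scale.

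*TPM1*, the major tropomyosin of actin cables, and *ABP1*, a patch protein that activates the Arp2/3 complex, showed the widest gaps in stationary phase. *TPM1* had a relative level of 4.52 in *ccr4Δ pbp1Δ*, 4.07 in *ccr4Δ* and 0.967 in wild-type stationary cells, against 3.24 in *ccr4Δ pbp1Δ*, 3.26 in *ccr4Δ* and 4.45 in wild-type cells in log phase. The wild-type stationary phase array stood far below the other 5, and both mutants had a higher relative level of *TPM1* in stationary than in log phase, although the unscaled signal of *ccr4Δ* was lower. *ABP1* had 1.73 in *ccr4Δ pbp1Δ*, 1.77 in *ccr4Δ* and 0.441 in wild-type cells in stationary phase, against 1.45 in *ccr4Δ pbp1Δ*, 1.52 in *ccr4Δ* and 1.11 in wild-type cells in log phase. For *ABP1* the wild-type arrays were the lowest in both phases. Stationary phase *ccr4Δ* was 4.20-fold higher than wild-type for *TPM1* (log2 2.07) and 4.02-fold higher for *ABP1* (log2 2.01).

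*SAC6*, the yeast fimbrin that crosslinks filaments into bundles, varied least of the 9 genes. It had 4.87 in *ccr4Δ pbp1Δ*, 5.22 in *ccr4Δ* and 2.86 in wild-type cells in stationary phase, and 3.94 in *ccr4Δ pbp1Δ*, 4.43 in *ccr4Δ* and 3.62 in wild-type cells in log phase. Its full range over the 6 arrays was 0.87 on the log2 scale, against 2.35 for *ACT1* and a median of 1.53 over the 5728 genes measured on all 6 arrays. The stationary phase ratio of *ccr4Δ* over wild-type was 1.83-fold.

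**Figure D1:**
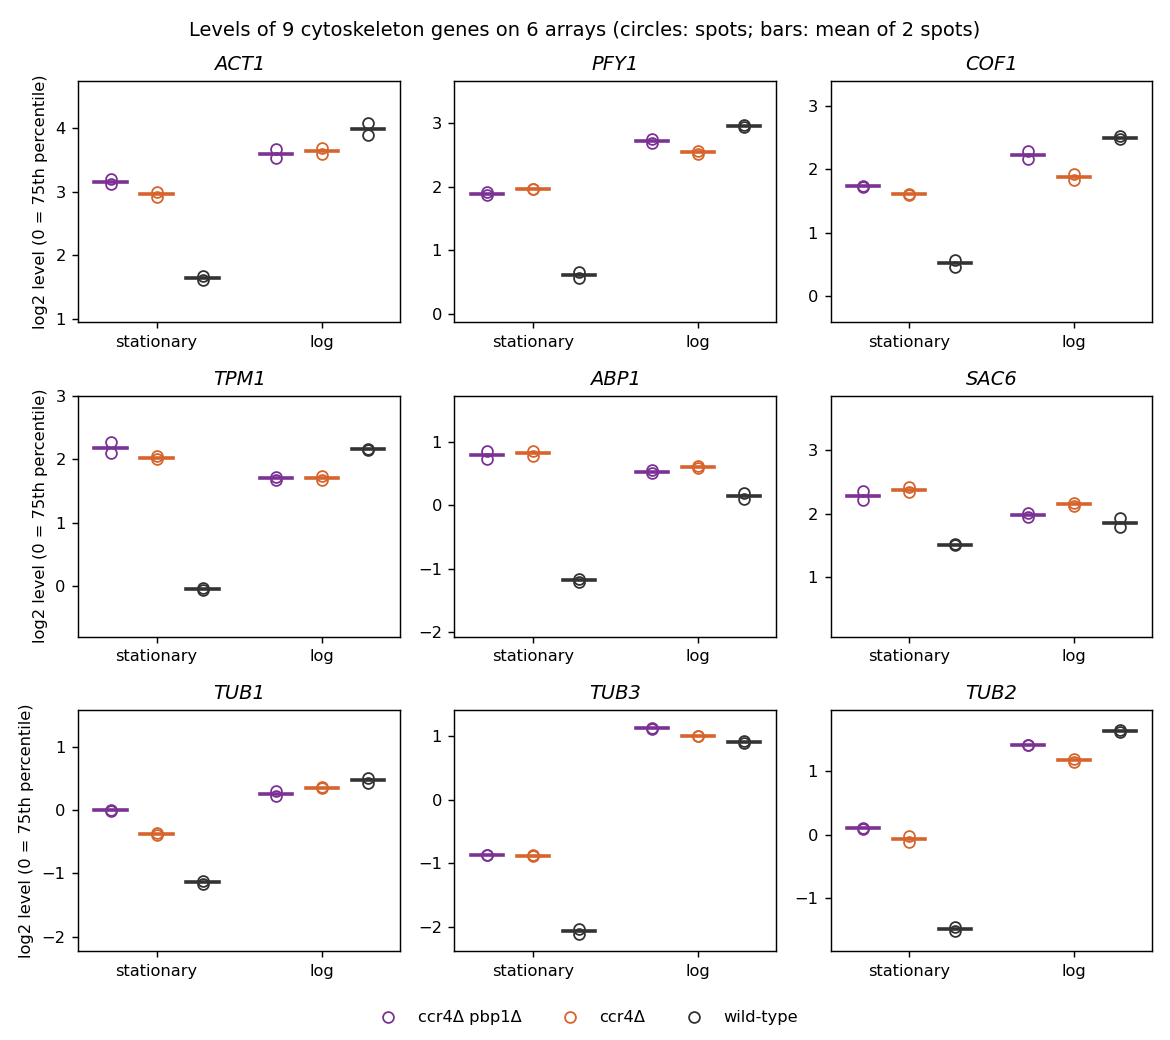
Log2 level of each of the 9 genes relative to the 75th percentile of its array (vertical axis, with the same span in every panel) in stationary and log phase, for *ccr4Δ pbp1Δ* (purple), *ccr4Δ* (orange) and wild-type (black) cells. Circles are the 2 spots of the probe on 1 array and bars their mean; the wild-type stationary phase array is the lowest of the 6 for each gene.

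In each strain *TUB2* and *TUB3* were lower in stationary than in log phase by more than any of the 6 actin-side genes, which did not hold for *TUB1*. *TUB1* and *TUB3* encode the major and the minor α-tubulin, and *TUB2* the only β-tubulin. *TUB1* had a relative level of 0.995 in *ccr4Δ pbp1Δ*, 0.771 in *ccr4Δ* and 0.454 in wild-type cells in stationary phase, against 1.20 in *ccr4Δ pbp1Δ*, 1.28 in *ccr4Δ* and 1.38 in wild-type cells in log phase. *TUB3* had 0.545 in *ccr4Δ pbp1Δ*, 0.543 in *ccr4Δ* and 0.237 in wild-type cells in stationary phase, against 2.18 in *ccr4Δ pbp1Δ*, 2.01 in *ccr4Δ* and 1.88 in wild-type cells in log phase. *TUB2* had 1.07 in *ccr4Δ pbp1Δ*, 0.954 in *ccr4Δ* and 0.356 in wild-type cells in stationary phase, against 2.67 in *ccr4Δ pbp1Δ*, 2.25 in *ccr4Δ* and 3.10 in wild-type cells in log phase. For each of the 3 genes the stationary arrays were all below the log arrays, and the wild-type stationary array was the lowest. *TUB2* was 2.68-fold, *TUB3* 2.29-fold and *TUB1* 1.70-fold higher in *ccr4Δ* than in wild-type cells in stationary phase. *TUB1* and *TUB3* are close relatives in sequence, and how far their probes cross-hybridize was not checked here.

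In stationary phase, 9 of the 9 genes were 1.5-fold or more higher in *ccr4Δ* than in wild-type cells. Over all 6034 genes measured on both arrays, 22.6% were 1.5-fold or more higher and 29.1% lower. The median log2 ratio of the 9 genes was 1.32, against -0.08 over all genes. Because the excess of *ACT1* chose the genes, this count is a description of the set. Set against *ACT1* itself, the log2 ratio was larger by 0.75 for *TPM1*, 0.69 for *ABP1*, 0.10 for *TUB2* and 0.03 for *PFY1*. It was smaller for the other 4 genes, with differences of -0.13 for *TUB3*, -0.23 for *COF1*, -0.45 for *SAC6* and -0.56 for *TUB1*. Without any scaling of the arrays 7 of the 9 stayed past 1.5-fold, *SAC6* (log2 0.47) and *TUB1* (0.37) being the exceptions.

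In log phase 6 of the 9 genes were on the lower side in *ccr4Δ* relative to wild-type cells. The median log2 ratio of all genes was -0.07, so most genes were on the lower side too. Only *COF1* passed 1.5-fold, with a log2 ratio of -0.62, so 1 of 9 was lower, against 15.9% of 5765 genes, and 0 of 9 were higher, against 13.6%. The genes *TUB2* (-0.46), *TPM1* (-0.45), *PFY1* (-0.41) and *ACT1* (-0.34) were lower within the limit. *ABP1* (0.46), *SAC6* (0.29) and *TUB3* (0.09) were on the higher side, and *TUB1* was at -0.11. Under quantile normalization or the processed values of the authors, *COF1* was no longer past the limit (nor on its first spot alone, at -0.56), and the direction of *ACT1* and *PFY1* turned, up to 0.15 and 0.05.

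The stationary phase ratio minus the log phase ratio of *ccr4Δ* over wild-type was positive for 9 of 9 genes and exceeded 1.5-fold for 8 of 9, where 22.2% of 5756 genes were higher and 25.6% lower. The median was 1.66, against -0.04 over all genes. The largest difference was that of *TPM1* (2.52), followed by *TUB2* (1.89), *PFY1* (1.77), *COF1* (1.71), *ACT1* (1.66), *ABP1* (1.55), *TUB3* (1.11) and *TUB1* (0.88), and *SAC6* (0.58) was just inside the limit. The count was 7 of 9 without scaling, where *TUB1* was at 0.49 and *SAC6* at 0.19, and 9 of 9 under median scaling, quantile normalization, normexp and the values of the authors, where *SAC6* was at up to 0.75. This difference uses the ratio that chose the set, so it is a description too. For *ccr4Δ pbp1Δ* over wild-type, with the same wild-type arrays, it passed 1.5-fold for 9 of 9 genes, where 25.1% of 5731 genes were higher and 25.1% lower. For *ccr4Δ pbp1Δ* over *ccr4Δ* it passed for 0 of 9 genes, where 14% of 5831 genes were higher and 11.8% lower.

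**Figure D2:**
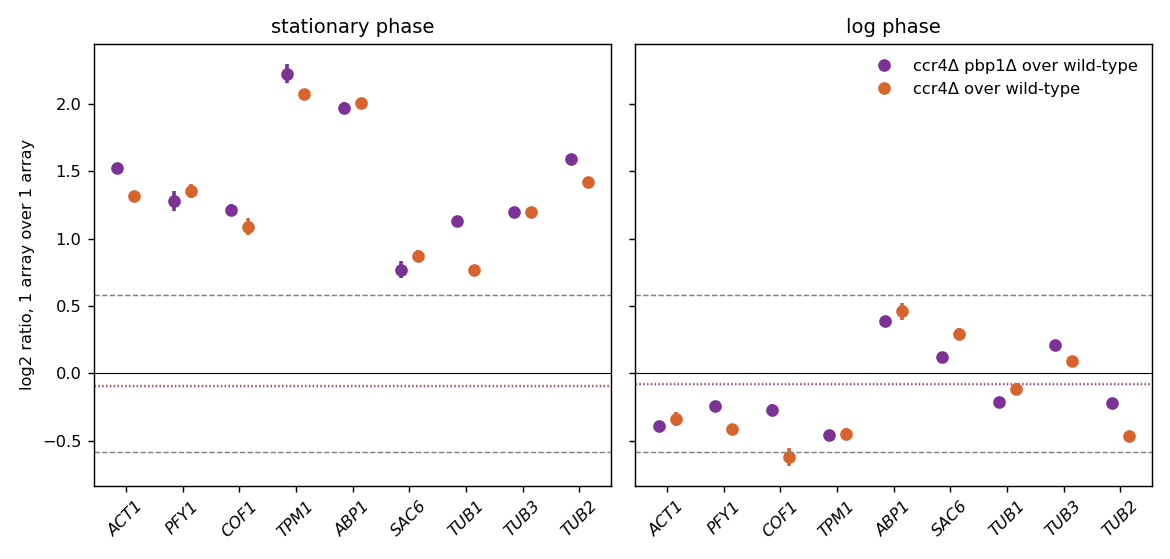
Log2 ratio of *ccr4Δ pbp1Δ* over wild-type (purple) and of *ccr4Δ* over wild-type (orange) for the 9 genes in stationary phase (left) and log phase (right). Points are the ratio of 1 array over 1 array, vertical lines span the ratios of the 2 spots, grey dashed lines mark 1.5-fold and dotted lines the median of all genes; in stationary phase all 18 points lie above the upper dashed line, and the 2 colours share the wild-type array.

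The ratios of *ccr4Δ pbp1Δ* over *ccr4Δ* ask whether loss of *PBP1* changed the level of the cytoskeleton genes. In earlier work that the study cites, Pbp1 mediated the growth defect of *ccr4Δ* cells. None of the 9 genes passed 1.5-fold in stationary phase (10.4% of 5880 genes were higher and 10.8% lower) or in log phase (1.52% of 5916 genes were higher and 7% lower). In stationary phase the log2 ratios lay between -0.10 for *SAC6* and 0.37 for *TUB1*, with 0.20 for *ACT1*. In log phase they lay between -0.17 for *SAC6* and 0.35 for *COF1*, with -0.05 for *ACT1*. *TUB1* passed the limit in stationary phase without scaling, where it was at 0.60. With 1 array a strain, these values do not show that the mutants were alike.

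Against wild-type, *ccr4Δ pbp1Δ* in stationary phase was 1.5-fold or more higher for 9 of 9 genes, where 24% of 5869 genes were higher and 29.5% lower, with log2 ratios of 2.23 for *TPM1*, 1.97 for *ABP1*, 1.59 for *TUB2* and 1.52 for *ACT1*. The other 5 lay between 0.77 for *SAC6* and 1.28 for *PFY1*. This ratio uses the same wild-type stationary phase array as that of *ccr4Δ*, which chose the genes, so the count is a description too. Only the mutant array is a different one. In log phase 0 of 9 genes passed the limit against wild-type, where 7.23% of 5765 genes were higher and 9.82% lower, and *TPM1* was the farthest at -0.46.

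All 9 genes had a lower relative level in stationary than in log phase in wild-type cells, 8 of them by 1.5-fold or more, where 30.5% of 5761 genes were lower and 33.4% higher. The log2 ratios were -3.13 for *TUB2*, -2.99 for *TUB3*, -2.35 for *ACT1*, -2.35 for *PFY1*, -2.20 for *TPM1*, -1.98 for *COF1*, -1.61 for *TUB1* and -1.33 for *ABP1*. *SAC6*, at -0.34, stayed within the limit. *ACT1* was thus 5.11-fold and *TUB2* 8.73-fold lower in stationary than in log phase wild-type cells. The stationary phase arrays of wild-type and *ccr4Δ* cells gave the ratio that chose the genes, so counts over growth phase are a description too.

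In *ccr4Δ* cells 4 of 9 genes were lower by 1.5-fold or more, where 26.2% of 5950 genes were lower and 29.9% higher: *TUB3* (-1.88), *TUB2* (-1.24), *TUB1* (-0.73) and *ACT1* (-0.69). *PFY1* was at -0.58, just inside the limit, and *COF1* at -0.27. In *ccr4Δ pbp1Δ* cells 3 of 9 genes were lower, where 28.6% of 5838 genes were lower and 35.9% higher: *TUB3* (-2.00), *TUB2* (-1.31) and *PFY1* (-0.83). *ACT1* was at -0.44 there, *COF1* at -0.50 and *TUB1* at -0.27. *TPM1*, *ABP1* and *SAC6* had log2 ratios above 0 in both mutants, from 0.22 for *ABP1* in *ccr4Δ* to 0.48 for *TPM1* in the double mutant, and below 0 in wild-type cells. Without scaling these ratios were -0.13 for *ABP1* and -0.09 for *SAC6* in *ccr4Δ pbp1Δ* cells, and -0.16 for *TPM1*, -0.26 for *ABP1* and -0.24 for *SAC6* in *ccr4Δ* cells. Under quantile normalization *ACT1* turned to 0.26 in the double mutant. There and with the values of the authors the counts were 2 of 9 in the double mutant, without *PFY1* (-0.31 and -0.37), and 3 of 9 in *ccr4Δ*, without *ACT1* (-0.01 and -0.04). Without scaling they were 6 of 9 in both.

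**Figure D3:**
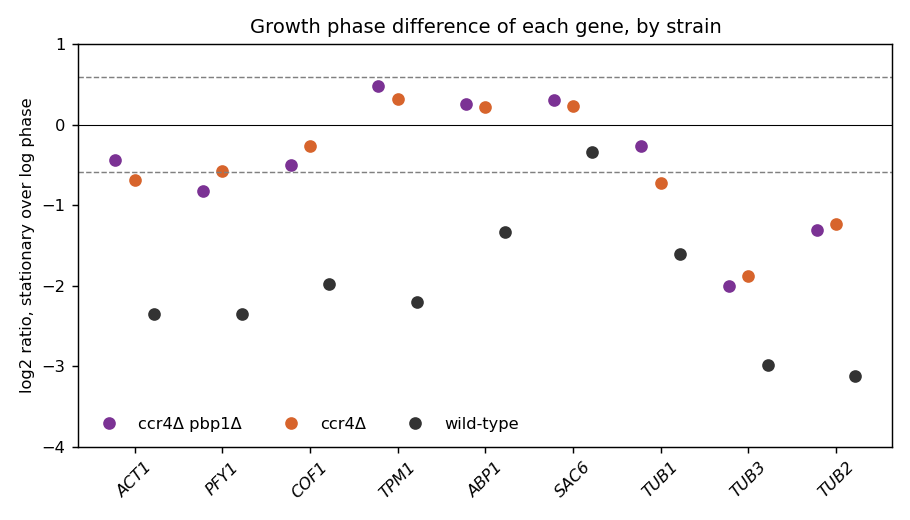
Log2 ratio of stationary over log phase for each gene in *ccr4Δ pbp1Δ* (purple), *ccr4Δ* (orange) and wild-type (black) cells, 1 array over 1 array. Vertical lines (mostly hidden by the points) span the 2 spots and dashed lines mark 1.5-fold; the wild-type point is the lowest for every gene, from -3.13 for *TUB2* to -0.34 for *SAC6*.

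The growth phase difference was fitted over all 6 arrays, with the 3 strains standing in for replicates and strain as a term of the model. Its residual is how far the strains differ in their response to growth phase, which takes in the ratio that chose the genes. The SE and p-values therefore do not measure a spread between replicate cultures. A strain difference over both phases was not fitted, since it would include the ratio that chose the genes. In that limma fit over 5728 genes, with 2 residual degrees of freedom, 3 of 9 genes were lower in stationary phase at an adjusted p under 0.05 and 0 were higher, where 22.6% of all genes were lower and 25.7% higher. At an unadjusted p under 0.05, 6 of 9 were lower, against 25.9% of all genes. *TUB3* fell by 2.29 on the log2 scale (SE 0.29, adjusted p 0.00218), *TUB2* by 1.89 (SE 0.41, adjusted p 0.0122) and *PFY1* by 1.25 (SE 0.38, adjusted p 0.0372), each in 3 of 3 strains. *ACT1* had a log2 difference of -1.16 (SE 0.40, adjusted p 0.0550), *TUB1* of -0.87 (adjusted p 0.0601) and *COF1* of -0.92 (adjusted p 0.0870), all lower in 3 of 3 strains and short of the threshold. *TPM1* (-0.47, adjusted p 0.500), *ABP1* (-0.29, adjusted p 0.545) and *SAC6* (0.07, adjusted p 0.841), the genes whose direction differed between wild-type and mutants, did not pass either. *TUB3* and *TUB2* passed in all 10 alternatives. *PFY1* passed in 7 of 10, its adjusted p ranging from 0.00450 to 0.140, with 0.140 under quantile normalization, 0.127 with the processed values of the authors and 0.0606 without the *ccr4Δ pbp1Δ* arrays. *ACT1* passed in 3 of 10 (0.0137 to 0.383).

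Growth phase markers, genes induced on entry into stationary phase, were read beside these ratios. The 9 of them on the array had a summed signal of 325040 in *ccr4Δ pbp1Δ*, 317924 in *ccr4Δ* and 372985 in wild-type cells in stationary phase, and of 24024 in *ccr4Δ pbp1Δ*, 92452 in *ccr4Δ* and 15039 in wild-type cells in log phase. All 9 were well above background on every array but 1, the wild-type log phase array, where 8 were. In stationary phase the median of their ratios of *ccr4Δ* over wild-type was -0.51 on the log2 scale. By the 1.5-fold limit 3 of 9 were lower and 1 of 9 higher, where 29.1% of all genes were lower and 22.6% higher. The marker ratios ran from -2.55 for *SPG4* to 0.83 for *HSP26*. In log phase 9 of 9 were lower in *ccr4Δ pbp1Δ* than in *ccr4Δ* (median -1.83), where 7% of all genes were lower and 1.52% higher. For *ccr4Δ* over wild-type cells 8 of the 8 measured were higher (median 2.03), where 13.6% of all genes were higher and 15.9% lower. The part of growth phase in the cytoskeleton ratios of either phase was not tested.

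Beyond the 9 genes, 100 further genes of 10 cytoskeleton groups were measured on both stationary phase arrays. In *ccr4Δ* over wild-type 34 of 100 were higher and 13 were lower, and their median was 0.20 on the log2 scale, where 22.6% of all genes were higher and 29.1% lower. Without scaling every ratio was lower, so fewer of the 100 were past 1.5-fold higher and more were lower. Of all genes, 709 were then higher and 2770 lower. The group counts below are with scaling. The highest medians were those of the actin-binding and the nucleation genes. Of 13 actin-binding and patch proteins 9 were higher and 1 lower (median 1.21). *SRV2*, the cyclase-associated protein that recycles actin monomers with cofilin, was 3.81-fold higher, with a relative signal on the log2 scale of 0.74 in *ccr4Δ* and -1.19 in wild-type cells. *SCP1*, a calponin-like bundling protein, had a log2 ratio of -1.20. *TPM2*, the minor tropomyosin, was at 1.34 and was named after its value was seen; it is a relative of *TPM1*.

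Of 13 actin nucleation genes 9 were higher and 2 lower (median 0.95). Without scaling *ARC18*, *ARC19*, *ARC35* and *PAN1* of these 9 were within 1.5-fold. *ARC15*, a subunit of the Arp2/3 complex that starts branched filaments, was 2.69-fold higher, and *BNI1*, a formin that starts cable filaments, had a log2 ratio of -0.87. The 7 Arp2/3 subunits, a subset taken after the values were seen, lay between 0.58 and 1.43, and 6 of them were past 1.5-fold. The same ratios in log phase lay between -0.28 and 0.38, with none past it. Of 8 myosins and light chains 4 were higher and 0 lower (median 0.66), led by *MLC1*, the essential light chain of the class II and V myosins, at 2.48-fold. Of 10 endocytic coat and scission genes 3 were higher and 1 lower (median 0.25), with *ENT1*, an epsin, at 1.54 and *SLA2*, the coat adaptor to actin, at -0.77.

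The microtubule groups had medians near or below 0. Of 20 microtubule-associated proteins and motors 2 were higher and 6 lower (median -0.35), from *DYN2*, the dynein light chain, at 1.51 to *NUM1*, the cortical anchor of dynein, at -1.32. Of 9 genes of the γ-tubulin complex and spindle pole body 0 were higher and 1 lower (median 0.02), namely *SPC97*, a partner of γ-tubulin, at -0.91. Of 6 tubulin folding cofactors 1 was higher and 2 were lower (median -0.36), with *RBL2*, which binds β-tubulin, at 0.68 and *CIN1* at -1.25.

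Actin and tubulin fold with the help of a pair of chaperone complexes. Prefoldin, which captures the nascent chains of both, had 5 of 6 subunits higher and 0 lower (median 0.74), with *GIM3* 3.23-fold higher. Without scaling *GIM5*, *YKE2* and *PFD1* of these 5 were within 1.5-fold. CCT, the chaperonin that folds both, had 0 of 10 members past 1.5-fold in either direction (median 0.07, from -0.44 to 0.46). Without scaling *CCT2*, *CCT4*, *CCT5* and *CCT7* were past it on the lower side. Of 5 septins, the filament proteins of the bud neck, 1 was higher (*CDC3*, log2 0.78, but within 1.5-fold without scaling) and 0 lower (median 0.53). With *ccr4Δ pbp1Δ* over the same wild-type array the medians were 1.12 for actin-binding and patch proteins, 0.92 for nucleation, 1.01 for prefoldin, 0.15 for CCT and -0.19 for microtubule-associated proteins and motors. The difference between one group and another was not tested.

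**Figure D4:**
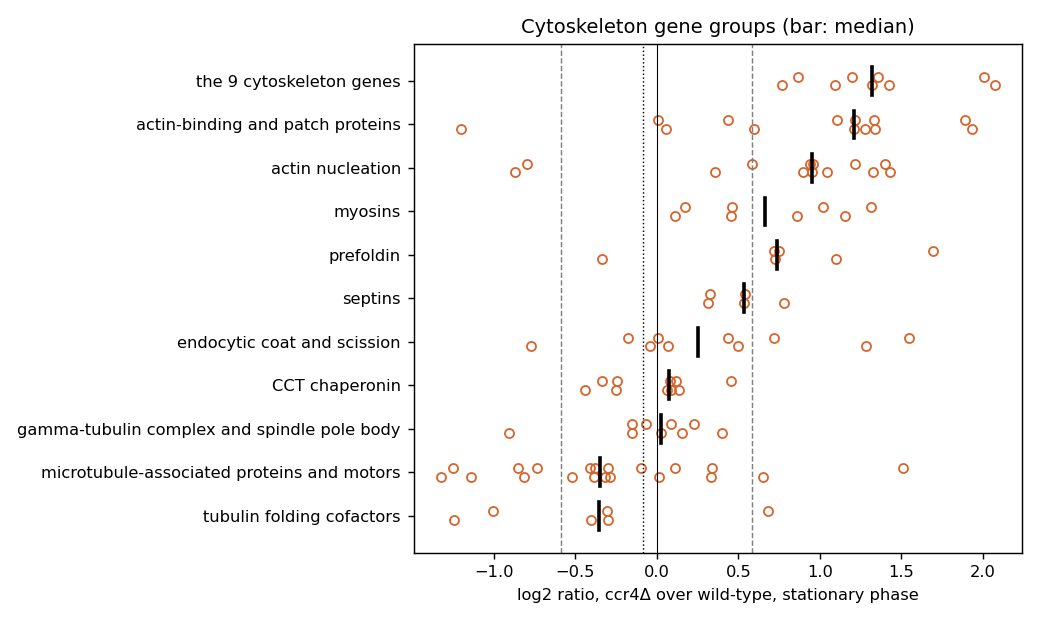
Log2 ratio of *ccr4Δ* over wild-type in stationary phase (horizontal axis) for the 9 genes and for 10 further cytoskeleton groups. Circles are genes and black bars group medians, grey dashed lines mark 1.5-fold and the dotted line the median of all genes (-0.08); the medians run from 1.32 for the 9 genes to -0.36 for the tubulin folding cofactors.

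*ACT1* and *TUB2* lie close together on chromosome VI with *YPT1*, a Rab GTPase gene of transport from the endoplasmic reticulum to the Golgi, between them. *YPT1*, named for this position, had a stationary phase log2 ratio of 0.72 for *ccr4Δ pbp1Δ* over wild-type and 0.32 for *ccr4Δ* over wild-type. In the second of these *ACT1* was at 1.32 and *TUB2* at 1.42. Over growth phase it was at -0.14 in wild-type cells, where *ACT1* was at -2.35 and *TUB2* at -3.13.

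As a reference for other transcripts across both growth phases, *ACT1* moved over these arrays by more than most genes. Its range over the 6 arrays was 2.35 on the log2 scale, wider than that of 77.4% of the 5728 genes. Of 10 other usual reference genes, 3 had a wider range: *PGK1* (4.26), *IPP1* (3.16) and *TDH3* (2.95), all genes of carbon or pyrophosphate metabolism. *TFC1*, a subunit of the RNA polymerase III factor TFIIIC, had the narrowest range (0.44), followed by *PDA1* (0.65), a pyruvate dehydrogenase subunit, and *TAF10* (0.84), a TFIID and SAGA subunit. *ALG9* (1.21), *TEF2* (1.26), *UBC6* (1.31) and *TEF1* (1.34) lay between; *TEF1* and *TEF2* are near-identical copies and their probes may share signal. Under quantile normalization the range of *ACT1* was 1.83 and that of *TFC1* 0.37. The range of 2.35 for *ACT1* was that between the growth phases of wild-type cells. It rests on the wild-type stationary phase array, part of the ratio that chose the genes, so the range and its rank are a description too. Within log phase, the log2 ratio of *ACT1* was -0.34 for *ccr4Δ* over wild-type (0.14 with the values of the authors). It was -0.39 for *ccr4Δ pbp1Δ* over wild-type. The qRT-PCR of the study took cells from growing cultures. It also took cells arrested with α-factor, cells released from that arrest with or without hydroxyurea, and cells treated with thiolutin. The range over both phases does not describe these uses.

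For *ccr4Δ* over wild-type in stationary phase, 4 of the 10 other reference genes were past 1.5-fold higher and 2 lower. Over all genes the shares were 22.6% and 29.1%. *PGK1* (2.04), *IPP1* (0.85), *ALG9* (0.79) and *UBC6* (0.76) were past 1.5-fold on the higher side, and *TEF1* (-0.77) and *TEF2* (-0.67) on the lower side. *TAF10* (0.21), *TDH3* (0.15), *PDA1* (-0.12) and *TFC1* (-0.28) were within it. With *ACT1* set as the zero of each array, the median of all genes in this comparison was -1.40, against -0.08 with the 75th percentile.

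**Figure D5:**
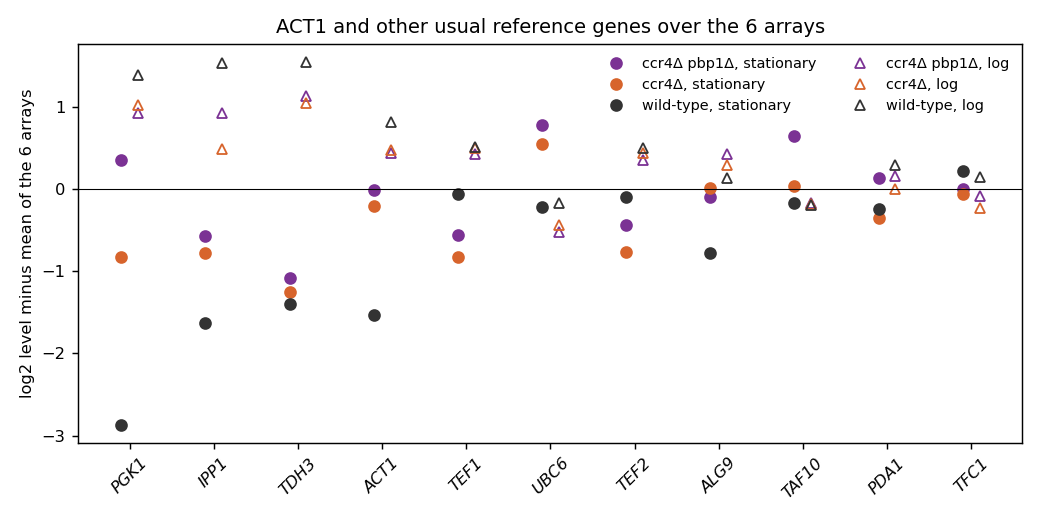
Log2 level of *ACT1* and 10 other usual reference genes on each of the 6 arrays, as the difference from the mean of the 6 arrays of that gene (vertical axis). Filled circles are stationary and open triangles log phase arrays, with strains by colour as in the key; genes run from the widest range (*PGK1*, 4.26) to the narrowest (*TFC1*, 0.44).

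The genes with profiles most like that of *ACT1* were found by the root mean square distance between log2 profiles over the 6 arrays, each gene centred on its own mean, among 5727 other genes. *PFY1* was the nearest of all (0.117), followed by *WBP1* (0.124), *RUD3* (0.127), YGR026W (0.140) and *ABF2* (0.144). *COF1* was rank 17, *TUB1* rank 35, *TUB2* rank 195, *TPM1* rank 294, *ABP1* rank 688, *TUB3* rank 895 and *SAC6* rank 1316. By Pearson correlation *TIP20* was the nearest, *PFY1* rank 15, *TUB1* rank 14 and *TUB3* rank 234. The 6 arrays are 1 of each condition, so likeness over them describes these arrays only. They include the arrays whose ratio chose the genes, so the ranks of the members are a description too. The nearest gene to each other member was *SSO2* for *PFY1* (0.0766), *ROT2* for *COF1* (0.0754), *POF1* for *TPM1* (0.144), *ACF4* for *ABP1* (0.120), *RSC4* for *SAC6* (0.0507), *SEC65* for *TUB1* (0.0852), *THI80* for *TUB3* (0.116) and *TSC13* for *TUB2* (0.154).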

How the data were processed

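Total RNA of 6 samples was hybridized to 1-colour Agilent yeast arrays. The authors deposited scanner tables with the background-subtracted intensity and flags of every spot, made with Feature Extraction 11.0.1.1 (submitters' processing notes), and a table of processed intensities; its sorted columns are identical, so it was quantile-normalized, a step not named in the sources used here. No deposited column of sample values was left unmapped. From the deposited intensities, control spots and outlier spots were left out and log2 values were set relative to the 75th percentile of their array and averaged over the spots of a probe. Of 6225 systematic names, 29 had more than 1 probe (their mean was used), and 5720 were found in the RefSeq table (assembly R64), used only for names and neighbours because the array design is on an earlier build. Probe and promoter sequences were not used here. Genes well above background on both arrays were compared; 1.5-fold or more is called past the limit. The share of probes well above background was 92.7% to 98.4% over the arrays, whose number limits the precision.

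The members and lists were chosen with earlier results of these data known. The lists were 10 cytoskeleton groups, usual reference genes, growth phase markers (9 of 10 on the array) and **a**- and α-specific markers. Named genes were the 9 members, *CCR4* and *PBP1*, the largest rise and fall past 1.5-fold in each cytoskeleton list, the reference genes, the 5 genes nearest to *ACT1* and the nearest to each other member; *TPM2* and *YPT1* were added after their values were seen. The growth phase model was fitted with limma 3.58.1 (lmFit, eBayes; R 4.3.3) with strain as a term and Benjamini-Hochberg adjustment, and was tested on simulated data. Other steps used Python 3.11.15 and pandas 2.3.3. Alternatives were quantile, median or no scaling, *ACT1* as reference, normexp with an offset of 50, the authors' values, single spots, a 2-fold limit, no filter on dim probes, a trended prior and leaving out each strain.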

Additional observations from a re-analysis of the deposited data

Results flagged for a closer look

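Several values of the 9 genes went in opposite directions in the growth phases. In each case 1 array stands for each strain and phase, and the difference was not tested. The share of all genes with opposite directions was not computed, so the counts below have no background beside them. For *ccr4Δ* over wild-type, the stationary phase log2 ratio was above 0 and the log phase ratio below 0 for 6 genes, with differences of 2.52 for *TPM1*, 1.89 for *TUB2*, 1.77 for *PFY1*, 1.71 for *COF1*, 1.66 for *ACT1* and 0.88 for *TUB1*. Under quantile normalization and with the authors' values the log phase ratios of *ACT1* and *PFY1* were above 0, which leaves 4 genes. These differences use the ratio that chose the genes. For *ccr4Δ pbp1Δ* over *ccr4Δ*, the directions were opposite for *TUB1* (0.46), *ACT1* (0.25) and *TPM1* (0.16), higher in stationary phase, and for *PFY1* (-0.25), higher in log phase. None of the ratios between the mutants passed 1.5-fold in either phase.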

How the results depend on the processing

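Under no scaling, median scaling, quantile normalization, normexp and the authors' values, 88 of 90 stationary phase ratios of either mutant over wild-type stayed on the same side of 1.5-fold; the exceptions were *SAC6* and *TUB1* in *ccr4Δ* without scaling. No scaling moved the median of all genes in that ratio to -0.48, against -0.08. Single spots and normexp moved no ratio beyond the spread between spots. *PFY1* lost its growth phase call under quantile normalization, the authors' values and without the *ccr4Δ pbp1Δ* arrays. The count of members lower in *ccr4Δ* in log phase was 0, in place of 1, under quantile normalization, the authors' values and a 2-fold limit, and 1 member was higher in *ccr4Δ pbp1Δ* than in *ccr4Δ* in stationary phase without scaling.

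With *ACT1* as the zero of each array, which by construction takes its own change from every gene, directions of ratios past 1.5-fold turned. For *ccr4Δ* over wild-type in stationary phase *COF1* was at -0.23, *SAC6* at -0.45, *TUB1* at -0.56 and *TUB3* at -0.13. For *ccr4Δ pbp1Δ* over wild-type *PFY1* was at -0.24, *COF1* at -0.31, *SAC6* at -0.75, *TUB1* at -0.39 and *TUB3* at -0.32. For stationary over log phase in wild-type cells *PFY1* was at 0.0058, *COF1* at 0.37, *TPM1* at 0.15, *ABP1* at 1.02 and *TUB1* at 0.74, and *SAC6*, within 1.5-fold before, at 2.01. For the stationary minus the log phase ratio of *ccr4Δ* over wild-type *ABP1* was at -0.12, *TUB1* at -0.78 and *TUB3* at -0.56, and *SAC6*, within 1.5-fold before, at -1.08.

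In the growth phase fit 6 members were lower without scaling (3 with it) and 887 of all genes higher (1472 with it). *SAC6* turned to -0.25 without scaling and -0.023 with median scaling. Leaving out each strain in turn gave 3 to 5 members lower, 5 without *ccr4Δ*, and 697 to 1508 of all genes lower and 754 to 1735 higher, the lowest counts without *ccr4Δ pbp1Δ*. The member values ranged over -1.52 to -0.57 for *ACT1*, -1.59 to -0.70 for *PFY1*, -1.24 to -0.38 for *COF1*, -0.94 to 0.40 for *TPM1*, -0.56 to 0.24 for *ABP1*, -0.05 to 0.27 for *SAC6*, -1.17 to -0.50 for *TUB1*, -2.49 to -1.94 for *TUB3* and -2.22 to -1.28 for *TUB2*, with *TPM1* and *ABP1* above 0 without wild-type, and *SAC6* at -0.020 without *ccr4Δ* and -0.054 without *ccr4Δ pbp1Δ*. Except where stated, the cause was not tested.

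The growth phase fit compared the phases within strains, and the labels number no replicates that would pair arrays otherwise. Culture, labelling, mating type, growth stage at harvest and, for the wild-type log phase array, slide cannot be told apart from the condition.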
